A study of Homo sapiens with 2 samples.

Results

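The interferon regulatory factors examined here are 8 transcription factor genes, IRF1, IRF2, IRF3, IRF4, IRF5, IRF7, IRF8 and IRF9, of 19775 genes that the platform's annotation names. They were chosen by symbol, and 13 of 54675 probe sets carried 1 of these symbols alone. Probe sets are groups of short array probes that together give 1 signal. Signals came from Eol1 cells, a human leukaemia line with eosinophil features that expresses FIP1L1-PDGFRA, an always-active fusion of the PDGF receptor alpha kinase. The cells of 1 culture were given 100 nM Glivec (imatinib, a kinase inhibitor that acts on this receptor) for 4 h, and those of 1 culture were left untreated. Both cultures were of the same cell line in serum-containing RPMI medium and were washed with PBS before RNA was extracted, so both groups carry the fusion. Each culture was read on 1 Affymetrix array. With 1 array per group there was no replicate check, no test between groups could be made and no p-value is given. "Higher" and "lower" below compare these arrays only.

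The factors share an N-terminal domain that binds DNA repeats with a GAAA core, the interferon-stimulated response element (ISRE), and differ in what switches them on. IRF3 and IRF7 are phosphorylated after viral nucleic acids are sensed and then switch on interferon genes, and IRF5 acts below Toll-like receptors. IRF9 joins STAT proteins in the complex ISGF3, which carries the type I interferon signal, whereas IRF1 is itself induced by STAT proteins and IRF2 competes with it for the same elements. IRF4 and IRF8 bind with PU.1 at composite elements in lymphoid and myeloid cells, and IRF8 directs progenitors towards monocytes and dendritic cells.

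The family was split between the arrays. IRF7, IRF8 and IRF2 were higher with Glivec, IRF9 and IRF1 were lower, and IRF3, IRF4 and IRF5 differed by 1.23-fold or less on their brightest probe set, which stands for each gene here. With the arrays scaled to spiked-in control RNAs in place of the bulk of genes, IRF2 and IRF8 lay just below their untreated signals, as described below. Ratios are Glivec over untreated on the log2 scale. Of the 8 genes, 3 were at least 1.5-fold higher, a fold that 13.5% of all 12705 measured genes reached, and 1 was at least 1.5-fold lower, beside 8.33% of all genes. No IRF gene was at least 2-fold higher or at least 2-fold lower on its brightest probe set, and across all genes these shares were 3.13% and 2.63%. At 3-fold they were 0.441% and 0.677%, again with 0 IRF genes on either side. The median log2 ratio over the 8 genes was 0.23, beside 0.10 over all measured genes. A gene was measured where at least 1 array exceeded a floor of 13.7, the median signal of all non-control probe sets on both arrays. All 8 genes passed on both arrays with their brightest probe set, and 11 of the 13 probe sets did.

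**Figure D1:**
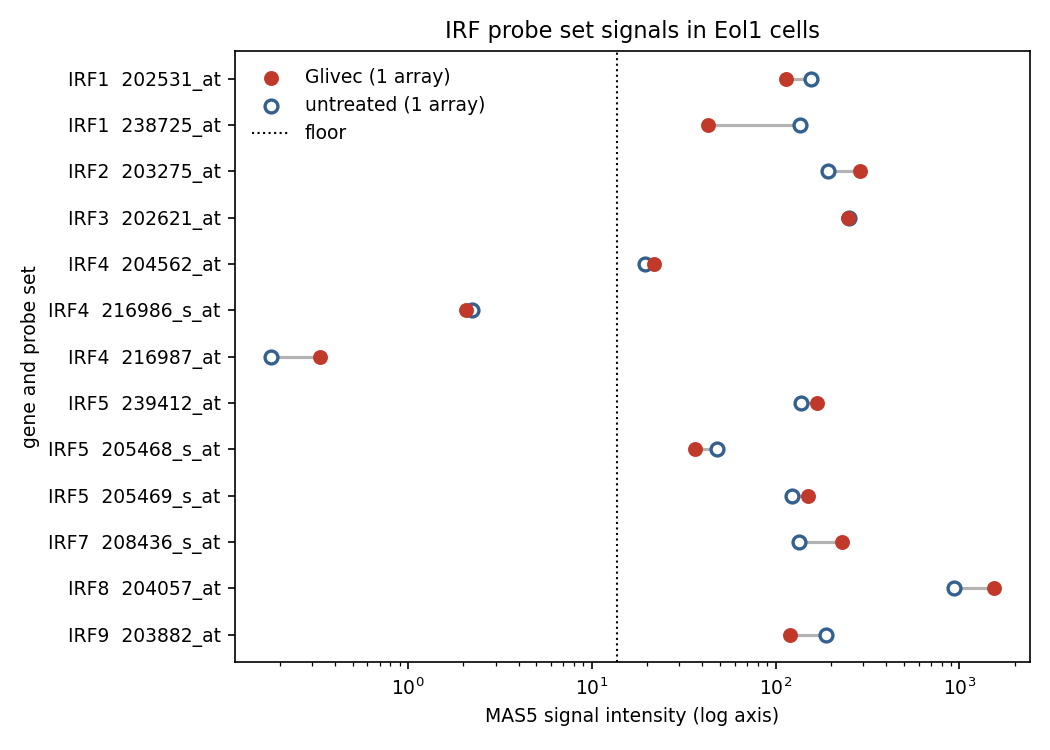
Signal intensity (log axis) of each of the 13 IRF probe sets on the Glivec array (filled red) and the untreated array (open blue), with the floor of 13.7 as a dotted line. IRF7, IRF8 and IRF2 lie to the right of their untreated signal, IRF9 and both IRF1 probe sets to the left, and 2 of the 3 IRF4 probe sets lie below the floor on both arrays.

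The only error that these files hold is the spread between probe sets of the same gene, which leaves out variation between cultures. Pooled over 5603 genes, the SD of log2 ratios around each gene's mean was 0.33. For genes in the signal class of most IRF members (the third of 4 equal classes, low to high) it was 0.31, for the brightest class, which holds IRF8, 0.29, and for the dimmest, which holds IRF4, 0.41. The log2 ratios of IRF9, IRF1, IRF2, IRF7 and IRF8 were larger in size than the SD of their class and those of IRF3, IRF4 and IRF5 were not. This comparison is a description and not a test.

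IRF9, the DNA-binding subunit of ISGF3, had a signal of 120 with Glivec and 189 in untreated cells. It was 1.57-fold lower with Glivec, a log2 ratio of -0.65, and 6.86% of measured genes had a lower ratio. This value rests on 1 probe set (203882_at). A further probe set names IRF9 beside another gene and was left out.

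IRF1, an activator of antigen presentation and interferon genes, was read by 2 probe sets that were lower to unequal degrees. The brighter (202531_at) had a signal of 114 with Glivec and 155 in untreated cells, 1.36-fold lower, or a log2 ratio of -0.44. The other (238725_at) had 43.1 with Glivec and 136 in untreated cells, 3.15-fold lower, or a log2 ratio of -1.65. Their gap of 1.21 was matched or exceeded in 3.86% of the 5603 genes that had more than 1 probe set over the floor on both arrays. The sources used here do not give where in the transcript each probe set lies, so the size of the IRF1 difference depends on which is read, while its direction does not. By the mean of both, IRF1 was the lowest member, with a log2 ratio of -1.05.

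The stretches before the start sites of IRF1 and IRF9 are shown because these genes were the lower members and both hold the STAT-binding element GAS (gamma-activated sequence), searched as TTCNNNGAA, which reads the same on both strands. Windows are the 250 bases before a RefSeq start site in GRCh38.p14, 5′ to 3′ on the gene's strand, with the GAS match in capitals. The IRF1 window is chr5:132490774-132491023 on the minus strand and the IRF9 window is chr14:24161015-24161264 on the plus strand.
IRF1: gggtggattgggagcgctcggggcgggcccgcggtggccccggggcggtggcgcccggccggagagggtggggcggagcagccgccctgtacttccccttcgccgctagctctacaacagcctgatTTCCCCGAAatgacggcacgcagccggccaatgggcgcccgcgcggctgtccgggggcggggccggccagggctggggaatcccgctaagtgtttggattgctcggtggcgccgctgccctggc
IRF9: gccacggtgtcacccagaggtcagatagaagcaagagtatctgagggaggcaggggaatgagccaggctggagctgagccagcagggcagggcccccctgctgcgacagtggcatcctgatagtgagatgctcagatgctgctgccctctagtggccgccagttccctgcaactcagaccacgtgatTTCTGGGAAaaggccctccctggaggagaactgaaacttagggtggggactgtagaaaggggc
In these windows the match is TTCCCCGAA for IRF1 and TTCTGGGAA for IRF9. The match begins 124 bases before the start site in IRF1 and 63 bases before it in IRF9. The other 7 windows searched, of IRF4, IRF5 and IRF8, held no match, and IRF2, IRF3 and IRF7 were not searched, so the windows do not show whether the higher members IRF2 and IRF7 hold GAS. None of the 9 IRF windows held the ISRE letters, searched as 2 copies of GAAA set 2 bases apart, on either strand. Of 35116 windows of all genes, 6.57% held the GAS letters and 3.02% the ISRE letters. Among measured genes, 10.4% of 776 with a GAS match were at least 1.5-fold lower with Glivec, beside 8.22% of 9460 without one. For ISRE these shares were 11.6% of 346 genes with a match and 8.28% of 9890 genes without one. The median log2 ratios barely differed, at 0.08 with a GAS match and 0.09 without one, and at 0.09 both with and without an ISRE match. A match is a run of letters and not a bound site, and the search was chosen after the signals had been seen.

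IRF7, the factor that amplifies type I interferon production, had a signal of 231 with Glivec and 134 in untreated cells. It was 1.72-fold higher, a log2 ratio of 0.78, the highest of the family, and 6.89% of measured genes had a higher ratio. Its single probe set (208436_s_at) carries a suffix that marks probes shared by several transcripts. With spike-in scaling the log2 ratio was 0.05.

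IRF8, the monocyte and dendritic cell factor, had a signal of 1537 with Glivec and 931 in untreated cells on its 1 probe set (204057_at). It was 1.65-fold higher, a log2 ratio of 0.72, and 8.48% of measured genes had a higher ratio, while spike-in scaling brought it to -0.014.

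IRF2, the repressor that competes with IRF1, had a signal of 288 with Glivec and 192 in untreated cells (203275_at). It was 1.501-fold higher, a log2 ratio of 0.59 that lay just past the 1.5-fold threshold (0.58), and -0.15 with spike-in scaling. Of measured genes, 13.4% had a higher ratio.

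IRF3, the constitutive factor that responds first to viral nucleic acid, had a signal of 249 with Glivec and 250.4 in untreated cells (202621_at), a log2 ratio of -0.01. It stood at -0.74 with spike-in scaling and at 0.01 with quantile normalization. IRF5, which drives inflammatory cytokine genes, had 3 probe sets with differing signs. Signals were 168 with Glivec and 137 in untreated cells on the brightest (239412_at, log2 ratio 0.30). On the next (205469_s_at, 0.29) they were 150.1 with Glivec and 123 in untreated cells. On the dimmest (205468_s_at, -0.39) they were 36.7 with Glivec and 48.0 in untreated cells. The sign of the IRF5 ratio was therefore not settled, and it turned to -0.44 with spike-in scaling.

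IRF4, the lymphoid and plasma cell factor, stayed near the floor. Its brightest probe set (204562_at) had a signal of 21.9 with Glivec and 19.5 in untreated cells, a log2 ratio of 0.17 that was -0.005 with quantile normalization, -0.07 after loess and -0.57 with spike-in scaling. The other IRF4 probe sets were below the floor, at 2.07 with Glivec and 2.22 in untreated cells (216986_s_at) and at 0.33 with Glivec and 0.18 in untreated cells (216987_at).

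**Figure D2:**
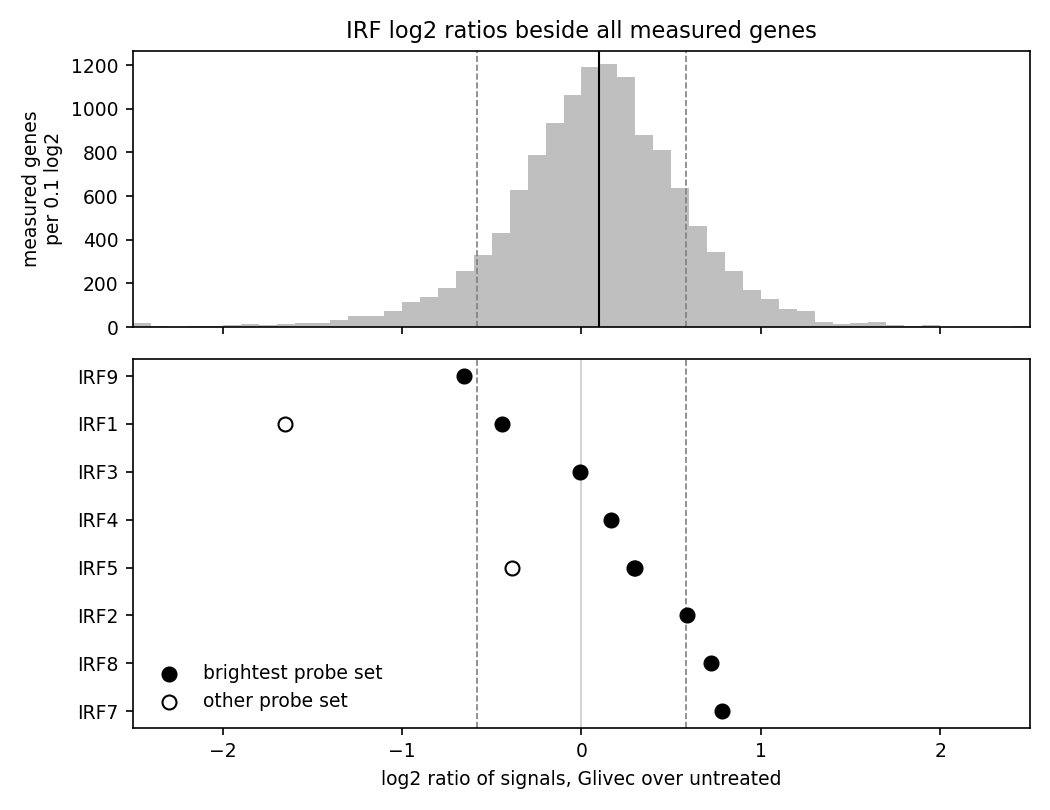
Upper panel, number of measured genes per 0.1 of log2 ratio (values past 2.5 in size are in the end bars), with the median of 0.10 as a solid line; lower panel, the log2 ratio of each measured IRF probe set, filled for the brightest of a gene and open for the others, with dashed lines at 1.5-fold. IRF9 lies past the lower line, IRF2 on the upper line and IRF8 and IRF7 past it, directions that hold for IRF2 and IRF8 only without spike-in scaling. The upper 2 IRF5 probe sets, at 0.30 and 0.29, overlap.

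Differences between members do not move when a whole array is rescaled, so they were compared directly, for 6 pairs chosen after the values had been seen. The log2 ratio of IRF2 exceeded that of its competitor IRF1 by 1.03, or 2.04-fold, and the difference was 1.02 to 1.63 over the main setting and 10 alternatives. IRF8 exceeded IRF9 by 1.38 (1.37 to 1.42) and IRF1 by 1.17 (1.16 to 1.77). IRF7 exceeded IRF9 by 1.44 (1.43 to 1.45), IRF1 by 1.22 (1.22 to 1.83) and IRF3, its partner in interferon induction, by 0.79 (0.76 to 0.79), in 9 alternatives that gave it a value. The upper ends of the IRF1 differences came from the mean over its probe sets.

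**Figure D3:**
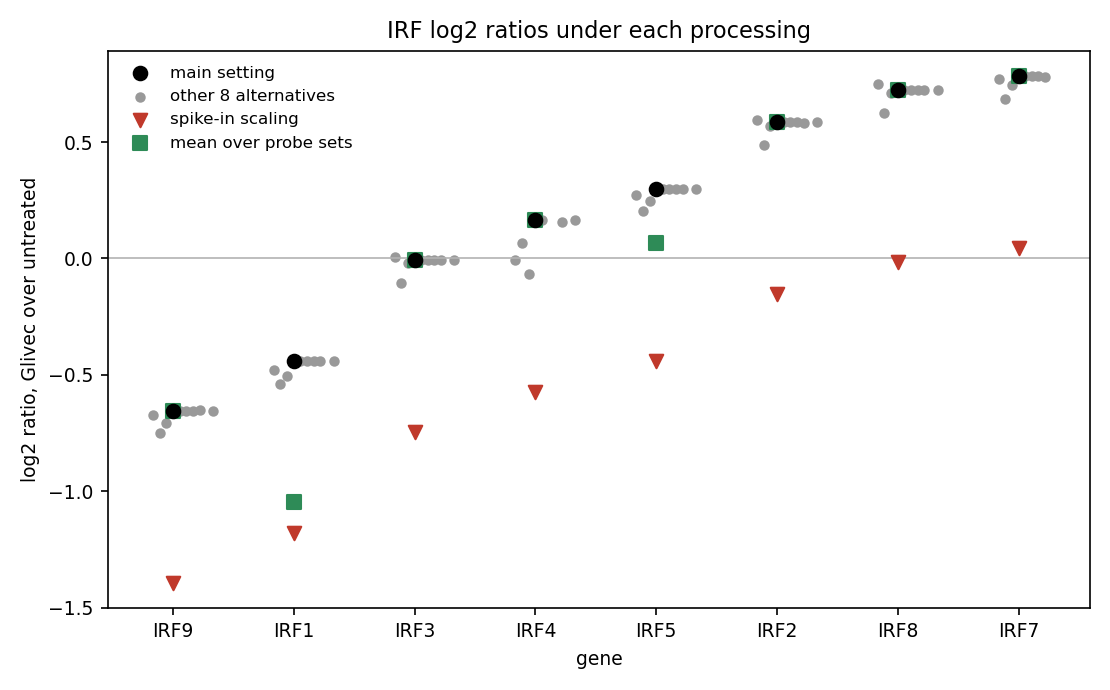
Log2 ratio (Glivec over untreated) of each IRF gene under the main setting (black) and 10 alternatives, with spike-in scaling as red triangles, the mean over probe sets as green squares and the others in grey. Spike-in scaling lowers every IRF gene by 0.74 and puts IRF2 and IRF8 below 0, IRF1 moves to -1.05 with the mean over probe sets, and IRF9 and IRF1 have the lowest log2 ratios under every setting drawn.

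Scaling sets the sign of the smaller ratios, and also of the IRF2 and IRF8 ratios. The deposited signals had an equal trimmed mean of 100.01 on both arrays, and 18 probe sets for bacterial and phage RNAs, spiked in at hybridisation and meant to be equal between arrays, ran between 0.42 and 0.89 in log2 ratio, with a median of 0.74. After scaling on these controls the median of all genes was -0.59. The IRF log2 ratios then ran between -1.39 for IRF9 and 0.05 for IRF7, with 0 members 1.5-fold higher. IRF9 and IRF1 were 2-fold lower or more, as were 2461 of the 12823 genes measured with this scaling. Relative to the median of all genes in the main setting, IRF7 stood at 0.69, IRF8 at 0.63, IRF2 at 0.49, IRF1 at -0.54 and IRF9 at -0.75. Log2 ratios of genes given in the following between 0 and 0.74, with both arrays above the floor, likewise turn below 0 with spike-in scaling.

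The DNA-binding partners of the family differed among themselves. Of 8 measured partner genes, 2 were at least 2-fold higher, beside 3.13% of all measured genes, and 1 at least 2-fold lower, beside 2.63%, with a median log2 ratio of 0.08. SPI1, which encodes PU.1, had a signal of 526 with Glivec and 228 in untreated cells and was 2.31-fold higher. SPIB, its relative of B cells and plasmacytoid dendritic cells, had 55.6 with Glivec and 25.6 in untreated cells, 2.17-fold higher, and a dimmer probe set gave 15.1 with Glivec and was below the floor (3.51) in untreated cells. BATF3, the partner of IRF8 in dendritic cells, had 17.3 with Glivec and 44.99 in untreated cells, 2.60-fold lower. Its Glivec signal lay near the floor, and with the floor at percentile 60 its log2 ratio was -0.85, short of 2-fold. JUNB of the AP-1 family was at 0.62. IRF8 and the gene of its partner PU.1 were thus both higher on the Glivec array in the main setting, and BATF3 was lower. With spike-in scaling SPI1 stayed higher, at 0.47, and IRF8 was at -0.014.

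Genes whose products repress or degrade IRF proteins had a median log2 ratio of 0.31 over 7 measured members. None was 2-fold different, beside 3.13% of all genes at least 2-fold higher and 2.63% at least 2-fold lower. IRF2BPL, a relative of the IRF2-binding corepressors, had a signal of 176 with Glivec and 320 in untreated cells and was 1.82-fold lower. RBCK1, a ubiquitin ligase subunit, was at 0.66, with other probe sets at 0.66 and -0.32. The ligase MDM2 was at 0.61, with other measured probe sets between -0.33 and 1.06, and TRIM21, a ligase that acts on IRF3, IRF5, IRF7 and IRF8, was at 0.31.

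Upstream, the interferon receptors and their kinases had a median log2 ratio of 0.13 over 12 measured genes, near the 0.10 of all genes. None was past 2-fold, beside 3.13% of all genes at least 2-fold higher and 2.63% at least 2-fold lower. The receptor chain gene IL10RB was at 0.77 and IFNAR1 at 0.42 with other probe sets between -0.08 and 0.63. The kinase genes TYK2 and JAK2 were at 0.54 and -0.47, and other JAK2 probe sets were at 0.04 and 0.89. Sensors, adaptors and kinases that lie above IRF3, IRF5 and IRF7 had a median of 0.19 over 20 measured genes, 15 of them above 0, where 59.0% of all measured genes lay. TRAF3, an adaptor that links sensors to the IRF3 and IRF7 kinases, was the 1 gene of these past 2-fold. Across all measured genes, 2.63% were at least 2-fold lower. TRAF3 had a signal of 43.5 with Glivec and 163 in untreated cells (3.76-fold lower). A cross-hybridising TRAF3 probe set, however, read 52.0 with Glivec and 51.5 in untreated cells. The Toll-like receptor genes TLR8 and TLR4 were at 0.75 and 0.59, and RIGI, a sensor of viral RNA, was at 0.62. These had no probe set below 0.

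The interferon genes themselves were nearly all below the floor. Of 18 with a probe set, 16 were below it on both arrays, among them IFNB1 at 1.67 with Glivec and 0.55 in untreated cells and IFNG at 3.33 with Glivec and 2.08 in untreated cells. IFNA17, by a cross-hybridising probe set, read 34.8 with Glivec and 34.0 in untreated cells. IFNL1 read 13.7 with Glivec, at the floor, and 15.8 in untreated cells.

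Genes that IRF1 and interferon gamma switch on were lower with Glivec more often than higher. Of 23 measured, 18 were below 0, where 41.0% of all measured genes lay, and the median log2 ratio was -0.46. In this list 10 were at least 1.5-fold lower and 6 at least 2-fold lower, beside 8.33% and 2.63% of all genes. Only 1 was at least 2-fold higher, beside 3.13%. All lists were chosen with earlier results of these data known, so their shares are a description and not independent support. The guanylate-binding protein gene GBP5 was at the floor with Glivec (6.37) against 75.7 in untreated cells, at least 5.52-fold lower, and its other probe set was also lower. CXCL11, a T cell chemokine, was at the floor with Glivec (13.2) against 69.0 in untreated cells, at least 5.04-fold lower. IL15RA, which presents interleukin 15, had signals of 22.8 with Glivec and 53.3 in untreated cells, 2.34-fold lower. CXCL10, SOCS1 and GBP1 were the other 3 past 2-fold, with log2 ratios of -3.18, -3.08 and -2.20. SOCS1, an inhibitor of JAK kinases, had other measured probe sets at -1.70 and 0.36. GBP3 was on the other side, 2.27-fold higher, with a signal of 38.3 with Glivec and 16.9 in untreated cells.

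Target genes of ISGF3, the complex to which IRF9 belongs, had a median of -0.20 over 38 measured members. Of these 38, 24 were below 0, where 41.0% of all measured genes lay. Of these members 8 were at least 1.5-fold lower, beside 8.33% of all genes, and 4 at least 1.5-fold higher, beside 13.5%. The antiviral gene RSAD2 and its genomic neighbour CMPK2, a mitochondrial nucleotide kinase gene, were 4.21-fold and 2.60-fold lower, with CMPK2 signals of 220 with Glivec and 571 in untreated cells. EPSTI1 was 2.16-fold lower, and its other probe set was at -0.35. TRIM22, an antiviral ubiquitin ligase gene, had 2242 with Glivec and 1247 in untreated cells, a log2 ratio of 0.85.

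Genes that IRF8 and PU.1 activate in myeloid cells had a median of -0.22 over 8 measured genes. None was past 2-fold, beside 3.13% of all genes at least 2-fold higher and 2.63% at least 2-fold lower. IRF8 and SPI1 were themselves higher in the main setting. The oxidase subunit gene CYBB had a signal of 307 with Glivec and 387 in untreated cells (-0.33) and the protease gene CTSC 1778 with Glivec and 2179 in untreated cells (-0.29). Another CYBB probe set was at -0.30, and a dim one, below the floor in untreated cells, was at 0.19. PML was at 0.49 and the metal transporter gene SLC11A1 at -0.69, with other probe sets between -0.56 and 1.19 for PML, and -0.65 and 2.002 for SLC11A1. By the mean over probe sets the list median was 0.02.

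**Figure D4:**
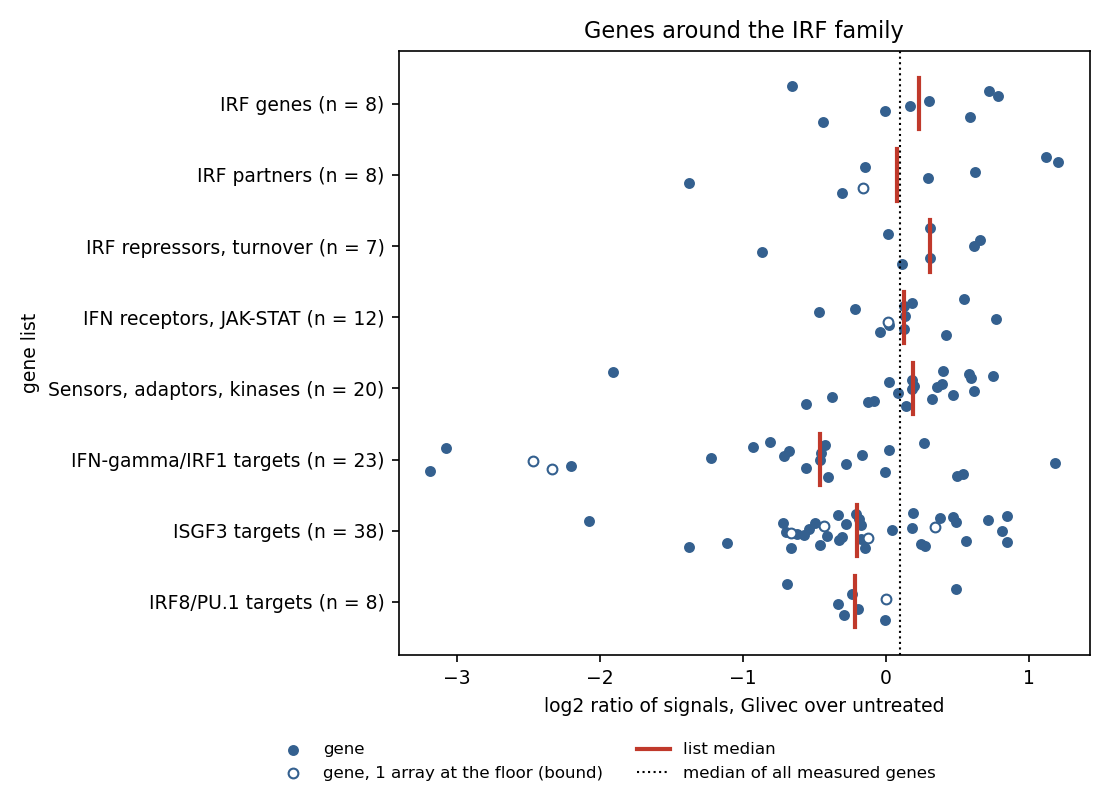
Log2 ratio (Glivec over untreated) of each measured gene in the IRF family and 7 related gene lists, with open points where 1 array was at the floor, a red bar for each list's median and a dotted line for the median of all measured genes, 0.10. The list of interferon gamma and IRF1 targets lies lowest, with a median of -0.46, and the IRF genes spread to both sides of the dotted line.

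The line's eosinophil character was checked beside these results. Of 12 eosinophil markers with a probe set, 7 were measured. The granule protein genes PRG2 (6302 with Glivec and 4744 in untreated cells) and RNASE2 (2872 with Glivec and 2146 in untreated cells) were far above the floor, whereas IL5RA, SIGLEC8, GATA1, PRG3 and ALOX15 were below it on both arrays. The other measured markers went both ways. GATA2, a transcription factor gene of the eosinophil and mast cell lineages, had the largest ratio of the list, with a signal of 94.4 with Glivec and 208 in untreated cells, 2.20-fold lower. Its other probe sets were at -0.86 and 0.20. EPX, the eosinophil peroxidase gene, read 27.2 with Glivec and was below the floor (12.6) in untreated cells, and CLC, the Charcot-Leyden crystal protein gene, was below it with Glivec (13.2) against 19.4 in untreated cells. Measured eosinophil markers summed to a signal of 9478 with Glivec and 7278 in untreated cells, nearly all of it from PRG2 and RNASE2, and their median log2 ratio was 0.29. All 12 monocyte and macrophage markers with a probe set were measured, with a median log2 ratio of 0.23. They summed to 16193 with Glivec and 13698 in untreated cells. Most of this sum came from S100A8 (7742 with Glivec and 6527 in untreated cells) and LYZ (5482 with Glivec and 4041 in untreated cells). Their other measured probe sets were at 1.33 for S100A8 and -0.37 for LYZ. Of the 12 markers, 9 were above 0, where 59.0% of all measured genes lay, and 3 were below. C1QA was at 0.90, MS4A7 at 0.88 and C1QB at 0.47, beside 0.72 for IRF8, a gene of the same lineage. VCAN was at -0.49, S100A9 at -0.26 and CD14 at -0.23, while C1QC and FCN1 were at 0.16 and 0.07. The part of these markers in the IRF8 difference was not tested, and more RNA per cell and more cells of a type cannot be told apart in a bulk sample.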

How the data were processed

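Signals of 54675 probe sets on 2 arrays were used, 1 per group. The deposited values are linear signal intensities that the authors produced by MAS5 according to the submitters' processing notes, with no version stated there. A table of the platform's annotation gave 1 symbol for 41097 probe sets, several for 1801 and none for 11777, and NCBI gene identifiers changed 0 symbols. Signals below the median of all non-control signals were raised to it before log2. A gene was read from its brightest probe set, with cross-hybridising (_x_at) sets used only where no other was present. With 1 array per group no test was made. Named genes were the IRF members, the 4 largest log2 ratios in size in each list and any gene of a list past 2-fold. Others are named to show genes below the floor, bright markers or the spread of a marker list. Members, lists and motifs were chosen with earlier results of these data known. With 2 arrays each gene has 1 ratio, so no genes of like pattern were sought. Alternatives were quantile normalization, median centring, loess (span 0.3), spike-in scaling, a pseudocount of 1 with no floor, floors at percentiles 40, 60 and 75, averaging a gene's probe sets, using _at sets alone, and a 3-fold threshold. The calculation was tested on simulated data with changes planted in bright genes only, and the check left out spike-in scaling. Python 3.11.15, numpy 2.4.6, pandas 2.3.3, statsmodels 0.14.6 and matplotlib 3.10.9 were used, with promoter sequences from RefSeq (GRCh38.p14).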

Additional observations from a re-analysis of the deposited data

How the results depend on the processing

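No paired analysis was possible because there is a single array per group, which also leaves no replicate to drop. The motif search and each of the 6 differences between members were added after seeing the data, and the alternative settings were planned. The gene lists were chosen with earlier results of these data known. With spike-in scaling 0 IRF genes were at least 1.5-fold higher, 3 at least 1.5-fold lower and 2 at least 2-fold lower. Of all 12823 genes measured with this scaling, 2461 were at least 2-fold lower, and the median of all genes was -0.59. The IRF median log2 ratio was -0.51, and IRF2 and IRF8 turned to -0.15 and -0.014. With the mean over probe sets 2 IRF genes were at least 1.5-fold lower and 1 at least 2-fold lower, through IRF1. Of all 12883 genes measured in this way, 277 were at least 2-fold lower. The IRF median was 0.12. After loess the median was 0.12. At a 3-fold threshold 0 were higher and 0 lower. Median centring, loess and the pseudocount each left 2 genes 1.5-fold higher, since IRF2 lay at the threshold, and only _at probe sets left 2, since IRF7 has none. Floors at percentiles 60 and 75 left no value for IRF4. IRF9 and IRF1 had the lowest log2 ratios of the family under all 10 alternatives. Of 77 values of single IRF genes under these alternatives, 68 moved by less than the SD between probe sets, 7 by more, and 2 changed sign after having passed 1.5-fold. For 52 other named genes 398 values moved by less and 83 by more, 52 of these with spike-in scaling, and none past 2-fold changed sign where it had a value. Of 129 list medians 79 moved by less than that SD over the square root of the list's size, and 50 by more, 13 of these with spike-in scaling. Signals near the floor limit IRF4. Other causes of these shifts were not tested.

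The number of genes at least 2-fold higher among all measured genes was 290 with quantile normalization, 272 with median centring, 234 after loess, 43 with spike-in scaling, 735, 234 and 91 with floors at percentiles 40, 60 and 75, 2252 with the pseudocount, 308 after averaging probe sets and 317 with _at probe sets alone, beside 398 in the main setting. Those at least 2-fold lower numbered 397, 448, 449, 2461, 459, 276, 176, 1705, 277 and 262 in the same order, beside 334.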

Other observations

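Markers of other blood cells that use IRF4, IRF7 or IRF8 were mostly dim. Of 10 plasmacytoid dendritic cell markers, a cell type known for high IRF7, 5 were measured, and the defining genes CLEC4C and LILRA4 were below the floor on both arrays. Measured ones summed to a signal of 1966 with Glivec and 1575 in untreated cells, most of it from LAMP5 (1657 with Glivec and 1318 in untreated cells). IL3RA had a signal of 26.1 with Glivec and 32.6 in untreated cells, and JCHAIN 32.0 with Glivec and 39.1 in untreated cells. SPIB, 2.17-fold higher, belongs to this list too. TCF4, the remaining measured marker, had 195 with Glivec and 160 in untreated cells, a log2 ratio of 0.29. Its other measured probe sets lay between -0.32 and 1.21.

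Of 9 B and plasma cell markers with a probe set 4 were measured, with summed signals of 174 with Glivec and 143 in untreated cells, and MS4A1 and PAX5 were below the floor. CD79A was at a log2 ratio of 0.66, and CD79B at -0.36 with another measured probe set at 0.18. SDC1 read 20.0 with Glivec and was below the floor (8.47) in untreated cells, and EBF1, near the floor, read 13.8 with Glivec and 16.7 in untreated cells. Of 12 T and NK cell markers 5 were measured, with summed signals of 1263 with Glivec and 1284 in untreated cells. NKG7 had 697 with Glivec and 853 in untreated cells and CD4, which monocytes also express, 529.7 with Glivec and 377 in untreated cells. CD3E was at the floor with Glivec (9.48) against 21.0 in untreated cells, and KLRD1 was at the floor with Glivec (11.0) against 16.1 in untreated cells, with another probe set above its untreated level (0.11).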
